A study of Mus musculus with 66 samples.

Results

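Solute carriers are the membrane proteins that move small molecules across plasma, vesicle, lysosomal and mitochondrial membranes, and the genes taken here were those whose symbol starts with Slc and a digit and that had a row in any of the 7 lists of regions the study deposited. Slc1a2, Slc1a3, Slc2a1 and Slc4a4 were left out. The rule found 199 of the 9810 genes named in any list, with 465 of the 57678 listed regions. The mouse annotation of the same genome build (GENCODE vM1, mm9) named 349 protein-coding genes by the same rule, so 150 had no listed region. A region was listed only where the group means differed by about 3-fold or more, so a gene without a region was not shown to be unchanged.

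The study asked where histone H3 is gained or lost in chromatin after neuronal activity. Primary cortical neurons of C57bl/6 mice, taken from E16.5 embryos and grown for 8 days in vitro, were depolarised with KCl or left unstimulated. An antibody to H3.3 was used at 30 min, 2 hr and 5 hr of KCl, one to H3.1/2 at 5 hr only, and CATCH-IT, also at 5 hr, captured newly made histones, with 3 libraries per group. Hippocampal nuclei of mice aged about 7 weeks, kept in enriched housing for 4 weeks or normally housed, were sorted by the neuronal protein NeuN, and H3.3 was pulled down from NeuN-positive nuclei (2 libraries per group) and NeuN-negative nuclei (3 per group). NeuN-negative nuclei are those of all cells without that protein, glia and vessel cells among them. At 30 min the labels gave 4 unstimulated libraries, one of them marked as a repeat, and the list packed 3 values. In vitro samples were biological triplicates and in vivo samples biological duplicates according to the protocol in the labels, which list 3 libraries per group for NeuN-negative nuclei.

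Nucleosomes take up the histone variant H3.3 throughout the cell cycle and so also in neurons that no longer divide, whereas H3.1 and H3.2 enter chromatin mainly when DNA is copied. In CATCH-IT an amino acid analogue marks newly made proteins, and chromatin that holds marked histones is pulled out, so the signal follows histone turnover. Solute carriers set what neurons and glia can take up or release: amino acid carriers supply and clear transmitter and its precursors, sugar carriers bring fuel, ion exchangers restore sodium, calcium, chloride and pH after activity, vesicular carriers load transmitter into vesicles, and mitochondrial carriers pass metabolites and nucleotides across the inner mitochondrial membrane. Neither assay reads RNA or transport.

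Values are the authors' normalised signal in a region for each library, listed below in the order in which the files pack them, with no library names. In the H3.3 lists 1 read was worth 0.542 to 2.64 units of signal, and in the CATCH-IT list 0.316 to 2.72. At the members, each library of the H3.3 group with more signal held 8 to 21 reads in the culture lists, 14 to 31 in NeuN-positive nuclei and 2 to 16 in NeuN-negative nuclei. Lane numbers in the library names put the treated and the control libraries in different lanes at 30 min, at 2 hr, in CATCH-IT and in both NeuN sorts, so lane and treatment cannot be told apart there. At 5 hr the KCl and unstimulated H3.3 libraries carry the same 3 lane numbers, but the labels do not say whether they shared a run, and packed values carry no names. Names of the 5 hr and NeuN-positive H3.3 libraries hold NoIndex and end in bowtie.mono. Those at 30 min, at 2 hr and in NeuN-negative nuclei hold an index sequence and end in rmdup. CATCH-IT names hold an index sequence and end in bowtie. The part of these labelled differences in contrasts between lists was not tested. All 5 neuron markers, 6 astrocyte markers and the oligodendrocyte, microglia and vessel lists of 5 genes each were searched in the lists. In the H3.3 culture lists Syt1 and Snap25 (neuron) had a region lower after KCl at 30 min, and Pecam1 and Slc2a1 (vessel) regions higher at 30 min and 2 hr. After enrichment Aldh1l1 (astrocyte) and Mbp (oligodendrocyte) had regions higher in NeuN-positive nuclei, and P2ry12 (microglia) a region lower in NeuN-negative nuclei. In CATCH-IT the neuron markers had 7 higher and 8 lower regions and the astrocyte markers 6 and 7. The oligodendrocyte markers had 1 and 3, the microglia markers 0 and 1 and the vessel markers 7 and 2. Of all listed CATCH-IT regions 57.3% were called higher. Gfap, Aqp4, Rbfox3 and Map2 had no region in any H3.3 list, and the part of cell make-up in the results was not tested.

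The sequences on which the H3.3 results turn are those of the 3 genes listed in more than 1 H3.3 list and of the KCl-gained promoter regions of Slc5a5 and Slc25a12. The last is that of Slc7a11, the member region with the largest loss by log2 fold change in the NeuN-negative list. They were read from the forward strand of mm9, 5′ to 3′. Capitals mark matches on either strand to the AP-1 site TGANTCA or to TGACG, the half-site of the cyclic AMP response element, the motifs bound by Fos-Jun dimers and by CREB.
Slc5a5, KCl 30 min, higher, chr8:73404201-73404400: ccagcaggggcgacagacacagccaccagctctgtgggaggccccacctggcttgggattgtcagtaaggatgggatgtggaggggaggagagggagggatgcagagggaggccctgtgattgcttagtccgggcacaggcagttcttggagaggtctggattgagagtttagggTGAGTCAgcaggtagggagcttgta
Slc24a1, KCl 30 min, lower, chr9:64777961-64778160: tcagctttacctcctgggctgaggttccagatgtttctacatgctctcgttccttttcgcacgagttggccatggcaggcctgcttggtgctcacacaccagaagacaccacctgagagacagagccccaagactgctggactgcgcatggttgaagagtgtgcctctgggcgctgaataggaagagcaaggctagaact
Slc24a1, enriched NeuN-negative, higher, chr9:64794341-64794540: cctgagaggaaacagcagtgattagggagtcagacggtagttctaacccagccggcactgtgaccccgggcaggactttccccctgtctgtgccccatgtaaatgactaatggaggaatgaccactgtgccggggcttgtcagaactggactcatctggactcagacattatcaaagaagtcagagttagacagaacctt
Slc25a12, KCl 2 hr, higher, chr2:71116841-71117040: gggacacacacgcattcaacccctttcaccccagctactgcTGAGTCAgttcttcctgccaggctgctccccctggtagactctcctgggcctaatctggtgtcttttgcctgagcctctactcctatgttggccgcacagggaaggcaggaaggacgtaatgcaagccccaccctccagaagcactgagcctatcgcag
Slc2a13, KCl 2 hr, lower, chr15:91146721-91146940: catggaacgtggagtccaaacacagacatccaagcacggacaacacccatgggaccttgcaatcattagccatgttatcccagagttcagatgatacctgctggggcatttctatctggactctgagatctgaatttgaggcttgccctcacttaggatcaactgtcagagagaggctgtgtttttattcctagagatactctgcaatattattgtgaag
Slc2a13, enriched NeuN-negative, higher, chr15:91121841-91122040: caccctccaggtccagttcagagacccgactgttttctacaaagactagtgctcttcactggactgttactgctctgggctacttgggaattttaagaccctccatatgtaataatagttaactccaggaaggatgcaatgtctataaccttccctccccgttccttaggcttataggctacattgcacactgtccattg
Slc35f3, KCl 2 hr, higher, chr8:128856621-128856820: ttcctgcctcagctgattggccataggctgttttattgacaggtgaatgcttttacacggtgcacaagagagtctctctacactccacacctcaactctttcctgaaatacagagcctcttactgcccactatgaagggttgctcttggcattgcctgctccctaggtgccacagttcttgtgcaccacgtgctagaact
Slc35f3, KCl 5 hr, higher, chr8:128911601-128911800: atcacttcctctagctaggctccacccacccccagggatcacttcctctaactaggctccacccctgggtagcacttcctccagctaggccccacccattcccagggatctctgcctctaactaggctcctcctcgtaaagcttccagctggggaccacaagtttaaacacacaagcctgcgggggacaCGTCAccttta
Slc7a11, enriched NeuN-negative, lower, chr3:50209121-50209320: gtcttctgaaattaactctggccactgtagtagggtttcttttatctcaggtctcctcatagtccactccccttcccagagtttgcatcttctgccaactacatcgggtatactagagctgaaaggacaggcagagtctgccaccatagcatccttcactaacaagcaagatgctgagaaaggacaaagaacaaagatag
The AP-1 site was in 3 of the 37 member regions of 200 bp in the H3.3 lists (8.11%), those of Slc5a5, Slc25a12 and Slc1a1, and in 6.54% of all 3117 listed H3.3 regions of that length. TGACG was in 6 of 37 (16.2%), against 6.96% of all. All 3 regions with an AP-1 site and 5 of the 6 with TGACG were listed as higher, among 25 higher and 12 lower member regions of that length. The same split was not counted over all listed regions, so these counts have no background. The Slc25a26 and Slc35f3 regions with TGACG are from the 5 hr list and did not reach an adjusted p of 0.05 in the authors' deposited table. The Slc2a13 and Slc24a1 regions held neither motif. A match is a description of the letters and not evidence of binding.

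At 30 min of KCl 5 solute carrier regions were listed, 1 higher and 4 lower, and all passed an adjusted p of 0.05 in the authors' deposited table. Over all 457 regions listed at that time 19.9% were called higher and 78.6% lower, so the direction of the members was that of the whole list. The highest value in one group lay below the lowest in the other in 100% of regions listed at 30 min, as it did in 100% at 2 hr, 5 hr and in both sorts and in 99.2% in CATCH-IT. Groups that do not overlap are therefore a property of the lists.

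Of the ion carriers 2 lost H3.3 within their introns at 30 min. Slc24a1, a sodium-calcium-potassium exchanger best known from rod photoreceptors, had 13.95, 14.99 and 12.70 in the unstimulated libraries and 4.32, 4.21 and 3.09 after KCl in a region at chr9:64777961-64778160. The 3 KCl libraries lay close together, with a mean of 3.87 ± 0.681 against 13.9 ± 1.15 (SD, n = 3 each). Slc4a7, a sodium bicarbonate cotransporter that raises intracellular pH, had 11.41, 12.49 and 16.60 unstimulated and 5.19, 5.26 and 1.03 after KCl at chr14:15576421-15576620. One KCl library was well below the other two. In the authors' deposited table the log2 fold changes were -1.84 for Slc24a1 and -1.82 for Slc4a7, with adjusted p 0.023 and 0.0266.

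Slc25a11, which exchanges 2-oxoglutarate for malate in the malate-aspartate shuttle, lost H3.3 in a coding exon, 223 bp downstream of the start site at chr11:70459541-70459740. Its values were 13.95, 14.16 and 12.70 unstimulated and 4.32, 3.15 and 4.12 after KCl, means of 13.6 ± 0.789 and 3.86 ± 0.626. Slc35f1, a member of the nucleotide sugar family, had 12.68, 9.99 and 11.72 unstimulated and 2.59, 5.26 and 1.03 after KCl in an intron at chr10:52595981-52596180. Without the KCl library value 3, which was the lowest for Slc35f1 and Slc4a7, 3 of the 5 regions kept group means 3-fold apart.

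The single gain at 30 min lay upstream of Slc5a5, the sodium-iodide symporter, which is chiefly a thyroid protein. At chr8:73404201-73404400, 2488 bp before the start site, the values were 5.07, 5.83 and 0.98 unstimulated and 15.57, 11.56 and 11.32 after KCl. All KCl libraries were above all unstimulated ones, and the mean rose from 3.96 ± 2.61 to 12.8 ± 2.39, with an adjusted p of 0.0309 in the authors' deposited table. The means were less than 3-fold apart without KCl library value 1 or without unstimulated library value 3, which left 0 gains at 30 min.

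At 2 hr 7 regions were listed, 2 higher and 5 lower, and all passed. Of all 689 listed regions 14.2% were called higher and 85.3% lower. The 5 losses were in introns of amino acid, sugar, ion and mitochondrial carriers, and the 2 gains were at a mitochondrial carrier and a gene of the nucleotide sugar family.

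Both amino acid carriers of the 2 hr list were lower. Slc7a8, a light subunit that exchanges large neutral amino acids, had 12.22, 15.83 and 11.05 unstimulated and 4.59, 3.79 and 1.36 after KCl at chr14:55390941-55391140. Slc7a14, a relative of the cationic amino acid carriers, had 9.16, 14.99 and 14.73 and 2.76, 3.03 and 5.45 at chr3:31174721-31174920. In both genes all KCl libraries were below all unstimulated ones, and the KCl means were 3.25 ± 1.68 and 3.75 ± 1.48. Slc2a13, which takes up myo-inositol with protons, had 12.22, 17.49 and 12.27 unstimulated and 3.68, 3.79 and 2.72 after KCl in a 220 bp intronic region. Against input the losses at Slc7a8 and Slc2a13 were smaller: in the authors' deposited table the ratio to input went from 2.80 to 2.10 at Slc7a8 and from 2.50 to 2.20 at Slc2a13.

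Slc8a2, the sodium-calcium exchanger NCX2 of neurons, had 12.22, 11.66 and 18.41 unstimulated and 1.84, 5.30 and 4.09 after KCl at chr7:16734181-16734380. All 3 KCl values were below all unstimulated ones, but the ratio to input did not fall: it was 1.18 unstimulated and 1.21 after KCl in the authors' deposited table, the only one of the 44 H3.3 member regions with a finite ratio in both groups where signal and ratio went opposite ways. Slc25a33, a carrier of pyrimidine nucleotides into mitochondria, had 11.20, 10.00 and 11.05 and 3.68, 1.52 and 2.72 at chr4:149139181-149139380, the lowest KCl mean of the 2 hr losses at 2.64 ± 1.08.

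Slc25a12 encodes aralar, the aspartate-glutamate carrier of neuronal mitochondria, which works in the same shuttle as Slc25a11. At chr2:71116841-71117040, 678 bp upstream of the annotated start site and in an intron of another of its transcripts, H3.3 was 3.05, 5.83 and 2.45 unstimulated and 15.62, 10.61 and 17.70 after KCl. The mean rose from 3.78 ± 1.80 to 14.6 ± 3.64. The 2 shuttle carriers thus had promoter regions listed in opposite directions, Slc25a11 lower at 30 min and Slc25a12 higher at 2 hr, and neither gene had a region at the other time. Slc35f3, of the nucleotide sugar family, had 2.04, 2.50 and 3.68 unstimulated and 11.94, 11.37 and 10.89 after KCl at chr8:128856621-128856820. The 3 KCl values lay close together, and the log2 fold change of 2.06 was the largest of the 2 hr members in the authors' deposited table.

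**Figure D1:**
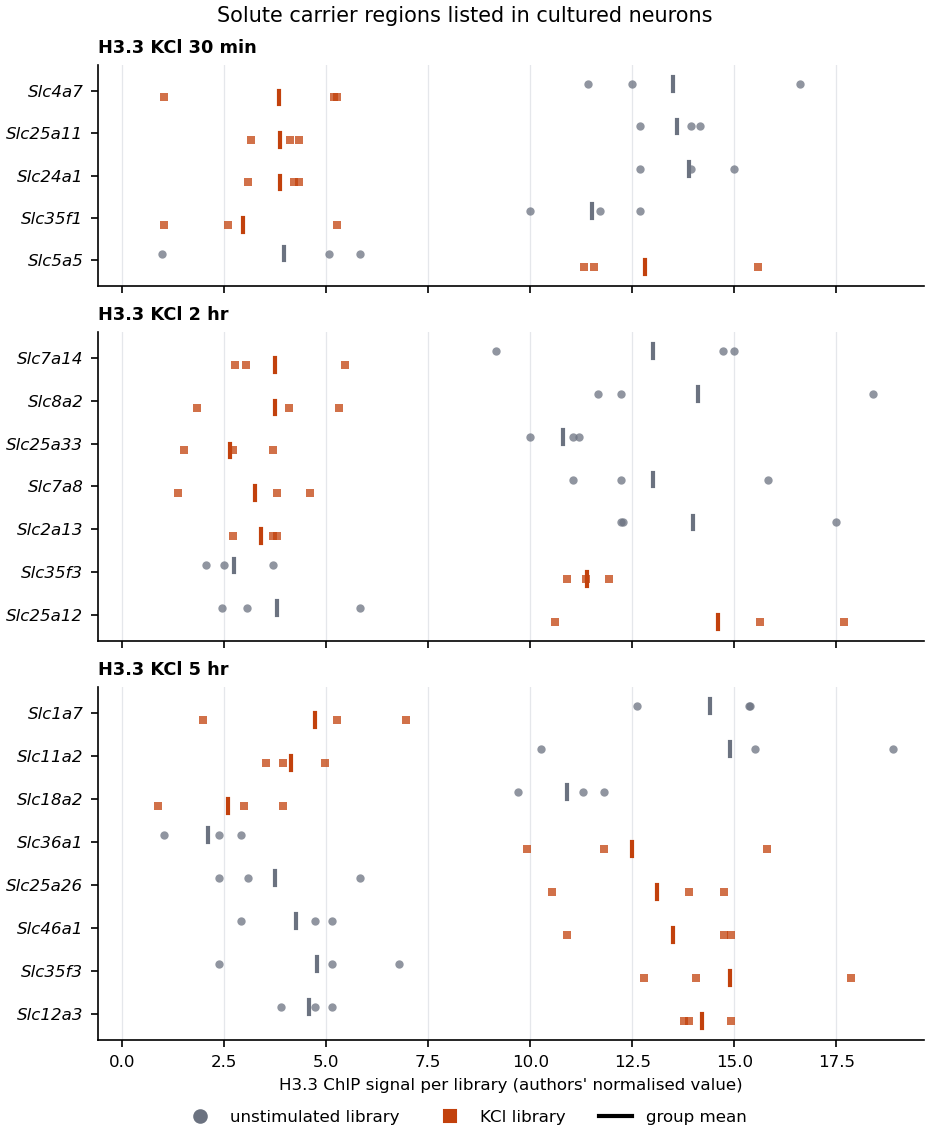
H3.3 signal of every library (x axis, the authors' normalised value) for the 20 solute carrier regions listed in KCl-treated cortical neurons at 30 min, 2 hr and 5 hr. Grey circles are unstimulated libraries, red squares KCl libraries and short bars group means (n = 3 each). At 30 min and 2 hr most regions have the KCl libraries on the left, and at 5 hr 5 of 8 have them on the right.

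At 5 hr 8 regions were listed, 5 with more and 3 with less H3.3 after KCl, and none reached an adjusted p of 0.05: their adjusted p in the authors' deposited table ran from 0.0654 to 0.114. Of all 667 regions listed at 5 hr 1.65% were called higher and 1.35% lower. The values are therefore given as levels, without a call.

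Slc36a1, a proton-coupled lysosomal amino acid carrier, had 2.36, 1.03 and 2.91 unstimulated and 11.80, 15.80 and 9.92 after KCl at chr11:55025321-55025520. Its log2 fold change of 2.58 was the largest of any culture H3.3 member region in the authors' deposited tables, on 1 to 3 unstimulated reads per library. Slc46a1, the proton-coupled folate carrier, had 4.72, 5.13 and 2.91 and 14.75, 14.92 and 10.91 in a coding exon. Slc25a26, which brings S-adenosylmethionine, the methyl donor, into mitochondria, had 2.36, 3.08 and 5.82 and 14.75, 10.53 and 13.89 over its start site, with means of 3.75 ± 1.83 and 13.1 ± 2.23. Slc12a3, the thiazide-sensitive sodium-chloride cotransporter of the kidney, had 4.72, 5.13 and 3.88 and 13.77, 14.92 and 13.89, the tightest groups at 5 hr. In each of these 4 regions every KCl library was above every unstimulated one.

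The 5 hr region of Slc35f3 lay 54.8 kb downstream of its 2 hr region, in the same direction. It had 2.36, 5.13 and 6.79 unstimulated and 12.79, 14.05 and 17.86 after KCl at chr8:128911601-128911800, means of 4.76 ± 2.24 and 14.9 ± 2.64. Slc35f3 was the only member with a region in 2 of the KCl H3.3 lists, and the regions did not overlap.

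The 3 regions with less signal at 5 hr were at carriers of metal, monoamine and glutamate. Slc11a2, the divalent metal carrier that takes up iron, had 18.89, 10.25 and 15.52 unstimulated and 3.93, 3.51 and 4.96 after KCl at chr15:100251361-100251560. Slc18a2, which loads monoamines into vesicles, had 11.80, 11.28 and 9.70 and 3.93, 0.88 and 2.98 in a coding exon. Slc1a7, a glutamate carrier best known from the retina, had 15.35, 15.38 and 12.61 and 1.97, 5.27 and 6.94. The ratio to input was also lower after KCl at all 3: in the authors' deposited table it was 2.49 unstimulated and 1.23 after KCl at Slc11a2, 1.82 and 0.42 at Slc18a2, and 2.26 and 0.61 at Slc1a7. The H3.1/2 list at 5 hr held 7 regions and no member.

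In NeuN-positive nuclei 12 member regions were listed, 9 higher and 3 lower after enriched housing, and all passed an adjusted p of 0.05 in the authors' deposited table. Of all 1642 listed regions 70.1% were called higher and 27.7% lower, so the split of the members was again near that of the list. Adjusted p of the members ran from 0.0173 to 0.0423, and each value rests on 2 libraries per group.

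In this sort 3 metal carriers and 2 mitochondrial carriers rose, and no member of these classes fell. Slc39a11, a zinc carrier of the ZIP family, had 4.52 and 4.11 in normal housing and 18.84 and 16.27 after enrichment, in an intron at chr11:113153541-113153740. Slc31a2, a copper carrier of the endosome, had 1.51 and 6.16 and 19.62 and 17.98, the largest log2 fold change of the sort at 2.29 in the authors' deposited table, with the normal-housing libraries at 1 and 6 reads. Slc30a9, a zinc carrier of the ZnT family, had 6.02 and 5.14 and 21.19 and 17.98 in a region that reaches its untranslated sequence. Slc25a37, or mitoferrin, which brings iron into mitochondria, had 3.01 and 10.27 and 21.98 and 25.69, and its normal-housing libraries were the farthest apart of the sort. Slc25a24, the ATP-magnesium carrier of mitochondria, had 6.02 and 5.14 and 21.98 and 20.55, with little spread in either group, and ratios to input of 0.81 and 1.36 in the authors' deposited table.

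Amino acid carriers were split. Slc1a1, the glutamate carrier of neurons, rose in an intron at chr19:28946741-28946940, from 4.52 and 3.08 to 18.05 and 17.12, means of 3.80 ± 1.02 and 17.6 ± 0.658. Slc38a2, which takes up glutamine and other neutral amino acids by the SNAT2 system, fell at its promoter, 348.5 bp from the start site to the region's centre, from 21.08 and 25.68 to 4.71 and 6.85 at chr15:96529661-96529900. Its region was the most GC-rich of all 45 H3.3 member regions, at 74.6%, and its adjusted p of 0.0173 was the smallest of the members in that authors' deposited table. Slc7a9, a cystine carrier of kidney and gut, fell in a coding exon from 28.60 and 23.63 to 7.06 and 9.42.

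Slc6a11, the GABA carrier found chiefly on astrocytes, fell from 24.09 and 17.46 to 3.92 and 5.14 at chr6:114091581-114091800 although the nuclei were sorted for NeuN. The remaining gains were at Slc45a2, a melanosome protein of the sugar family, with 6.02 and 3.08 against 15.70 and 17.98; at Slc5a6, the sodium-dependent multivitamin carrier, with 4.52 and 8.22 against 23.55 and 18.84; and at Slc12a9, a relative of the cation-chloride cotransporters, with 4.52 and 9.25 against 24.33 and 22.26. In all 12 regions the ratio to input moved the same way as the signal.

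In NeuN-negative nuclei 13 member regions were listed, 10 higher and 3 lower after enrichment, and all passed: the authors' deposited table gave them an adjusted p between 0.00556 and 0.00776. Over all 1196 listed regions 70.6% were called higher and 29.3% lower. Values in this sort were low: the enriched library value 2 rested on 2 to 7 reads in the 10 gained regions, each worth 2.64 units, and normal-housing values there were 0 to 3 reads.

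Carriers of zinc and manganese gave the highest enriched means, 10.9 at Slc39a14 and 9.73 at Slc30a10. The Slc39a14 region was 320 bp long, against 200 bp for the other gained regions. Slc39a14, which takes up zinc, iron and manganese, had 1.90, 1.35 and 2.71 in normal housing and 8.14, 15.85 and 8.67 after enrichment at chr14:70745001-70745320. Slc30a10, the manganese exporter, had 2.84, 1.35 and 1.81 and 5.82, 18.50 and 4.88 in a region 707 bp upstream of its start site. Its enriched values 5.82 and 4.88 equalled the lowest of the gained regions at those positions. For both genes the enriched library value 2 stood far above the other two, and without it the log2 difference of signal plus 1 was 1.08 in place of 1.84 at Slc30a10 and 1.65 in place of 1.99 at Slc39a14. Slc41a3, a magnesium carrier, fell upstream of its start from 8.53, 8.79 and 6.33 to 0, 0 and 2.17.

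The vitamin and urea carriers rose. Slc19a3, the thiamine carrier, had 0, 1.35 and 0.90 and 5.82, 7.93 and 5.42, Slc14a1, the urea carrier, had 0, 1.35 and 0 and 6.98, 5.28 and 4.88, and Slc46a2, a relative of the folate carrier, had 0.95, 1.35 and 0 and 8.14, 5.28 and 4.88. Each of the 3 had at least 1 normal-housing library at 0 reads. For Slc14a1 the normal-housing ratio to input was infinite, because input was 0, so the ratio could not be compared there.

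Both sugar carriers rose. Slc2a13 had 0.95, 0 and 0.90 and 5.82, 5.28 and 5.42 in an intron at chr15:91121841-91122040, 24.7 kb from the region that fell after 2 hr of KCl in cultured neurons. Slc2a8, an intracellular glucose carrier, had 1.90, 0.68 and 0 and 6.98, 5.28 and 5.42. Slc24a1 rose from 2.84, 1.35 and 0 to 5.82, 10.57 and 7.59 at chr9:64794341-64794540, 16.2 kb from the intronic region that fell after 30 min of KCl. The 2 treatments, the tissues and the cells differ, and no test compares these changes.

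The cystine-glutamate exchanger Slc7a11, by which glia release glutamate and make glutathione, had the largest loss of the members by log2 fold change. Its intronic region held 5.69, 6.76 and 7.23 in normal housing and 0, 0 and 1.08 after enrichment, that is 6 to 10 reads in each normal library and 0, 0 and 2 reads in the enriched ones. The log2 fold change was -4.18 in the authors' deposited table. Among the other amino acid carriers 2 rose: Slc36a2, a proton-coupled carrier of small amino acids, from 1.90, 1.35 and 1.81 to 8.14, 5.28 and 8.67 in a coding exon, and Slc6a17, which fills synaptic vesicles with neutral amino acids, from 0, 0.68 and 1.81 to 5.82, 5.28 and 5.96 near its start. Slc12a8, of the cation-chloride cotransporter family, fell from 7.58, 6.08 and 9.95 to 2.33, 2.64 and 0, while its ratio to input was 2.23 in normal and 1.71 in enriched housing in the authors' deposited table. No member was listed in both NeuN sorts.

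**Figure D2:**
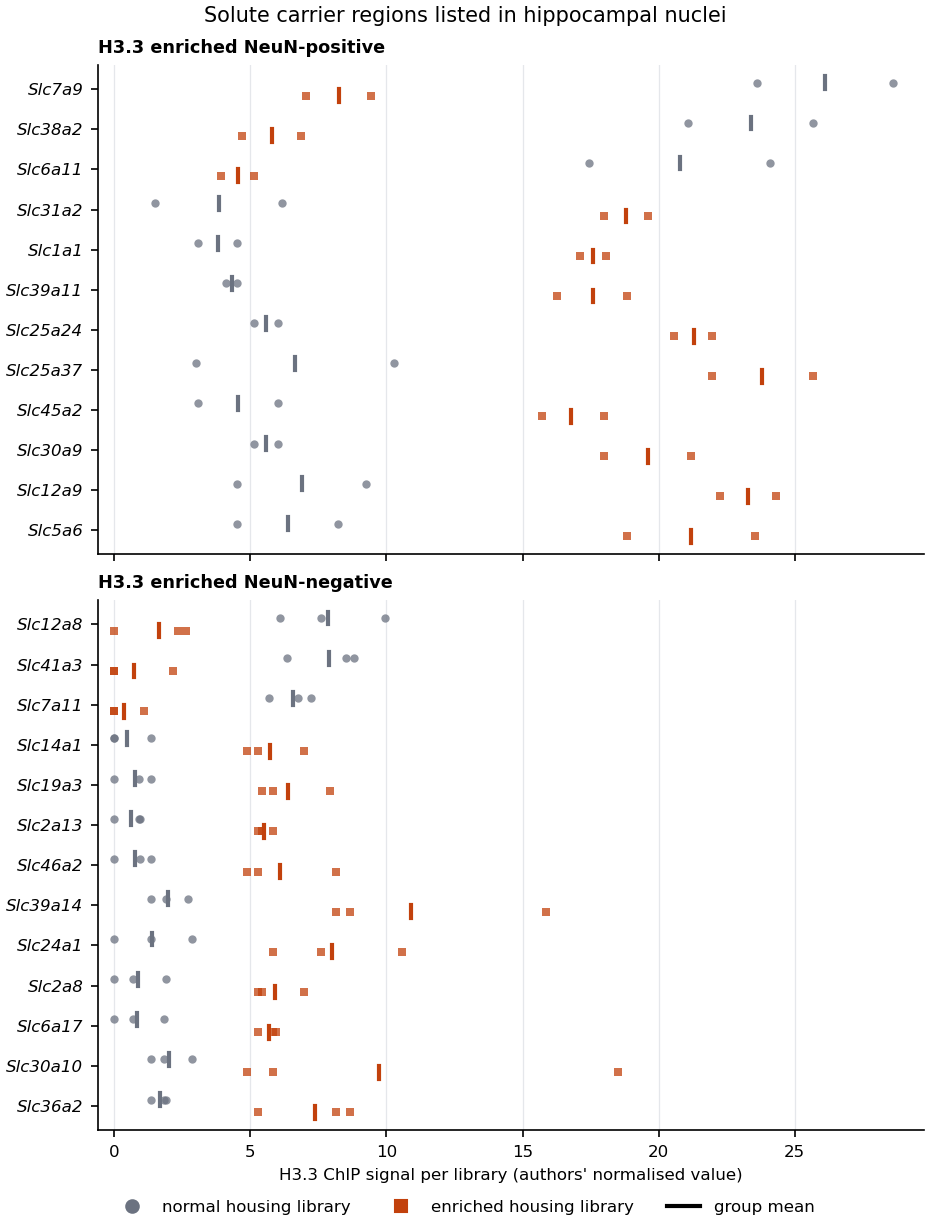
H3.3 signal of every library (x axis, the authors' normalised value) for the 25 solute carrier regions listed in hippocampal nuclei, NeuN-positive above (n = 2 per group) and NeuN-negative below (n = 3 per group). Grey circles are normal housing, red squares enriched housing and short bars group means. Enriched libraries lie on the right in 19 of 25 regions, and the NeuN-negative values are lower than the NeuN-positive ones, which were normalised separately.

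Across the 5 H3.3 lists the members held 45 regions in 42 genes, 27 higher and 18 lower. Amino acid carriers had 4 higher and 6 lower regions, ion carriers 4 and 4, metal carriers 5 and 2, mitochondrial carriers 4 and 2 and sugar carriers 3 and 1. The nucleotide class, here only Slc35f1 and Slc35f3 and placed by family and not by substrate, had 2 and 1. The vitamin, urea and other carriers had 5 and 0. Slc18a2 and Slc6a11, classed as vesicular and transmitter uptake carriers, had 1 lower region each, while Slc1a1, Slc1a7 and Slc6a17, which also carry transmitter or fill vesicles, were counted with the amino acid carriers. In cultured neurons at 30 min and 2 hr, 9 of 12 member regions were lower, and after enrichment 19 of 25 were higher, as in the lists as a whole. The class counts pool these lists of opposite direction and include the 8 regions of 5 hr, which did not pass. Metal carriers had 1 region at 5 hr, 3 in NeuN-positive and 3 in NeuN-negative nuclei. The vitamin, urea and other carriers had 1, 1 and 3 there. Differences between classes thus go with the lists their regions came from. No class had more than 3 regions in any one H3.3 list. The median log2 difference in signal plus 1 over the members was -1.59 at 30 min, -1.67 at 2 hr, 1.45 at 5 hr, 1.67 in NeuN-positive nuclei and 1.89 in NeuN-negative nuclei. Over all listed regions it was -1.62, -1.65, -1.47, 1.68 and 1.92. Only at 5 hr, where 5 of 8 member regions and 44.2% of all were listed as higher, did the sign differ. Library names at 5 hr are of another type than at 30 min and 2 hr, and the part of this was not tested.

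Higher member regions were richer in G and C than lower ones. The median GC content was 53.0% over the 27 higher regions (range 43.5% to 59.5%) and 45.5% over the 18 lower ones (range 35.0% to 74.6%), and 18 of 27 against 3 of 18 were above 50%. Over all listed H3.3 regions the medians were 50.0% and 46.0%. Read list by list, the median was greater in higher than in lower regions for the members of all 5 lists, but for all listed regions it was so only at 2 hr, at 5 hr and in NeuN-positive nuclei. At 30 min all listed regions had 45.0% in higher and 47.5% in lower ones (members 59.5%, a single region, and 48.2%), and in NeuN-negative nuclei 45.9% and 48.0% (members 50.0% and 45.5%). Promoter regions made up 33.3% of the higher and 22.2% of the lower member regions, against 11.2% and 17.1% of all listed regions, whose intergenic part cannot hold a member.

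CATCH-IT gave most of the data on this gene group: 420 regions in 189 genes, 240 higher and 180 lower after 5 hr of KCl. All passed, with adjusted p of at most 0.000289 in the authors' deposited table, as did all 53020 listed regions, 57.3% of which were called higher and 42.7% lower. The members' share listed as higher was 57.1% (exact 95% binomial interval 52.3% to 61.9%, which covers counting of regions only). Of the 189 genes, 77 had only higher regions, 53 only lower ones and 59 both, or 40.7%, 28.0% and 31.2%. Over all 9128 genes with a region the shares were 39.7%, 25.6% and 34.7%. The direction of the solute carriers was close to that of the whole list.

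The lower group was at 0 in every library in 415 of the 420 regions, so the folds are lower bounds. Set against 3 reads over the group at 0, the median was at least 5.21-fold higher for the gained regions and at least 4.44-fold lower for the lost ones, and over all listed regions at least 5.77-fold and 4.44-fold. The median reads of the group with signal were 18 over its 3 libraries.

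By class, ion carriers had the most regions, 52 higher and 49 lower over 36 genes. Amino acid carriers had 32 higher and 26 lower over 33 genes, and sugar carriers 19 and 13 over 15. Metal carriers had 29 higher and 14 lower (67.4%, interval 51.5% to 80.9%), and vesicular carriers 5 and 1 over 4 genes. Nucleotide carriers were even, at 19 and 18, and organic ion carriers were the only carrier class with more lower regions, 9 higher and 15 lower (37.5%, interval 18.8% to 59.4%). The intervals of all 11 carrier classes held the 57.3% of the whole list. They count regions as if independent, though 1 gene held up to 12 regions, and they are wide for small classes. No class was thereby tested against the list.

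**Figure D3:**
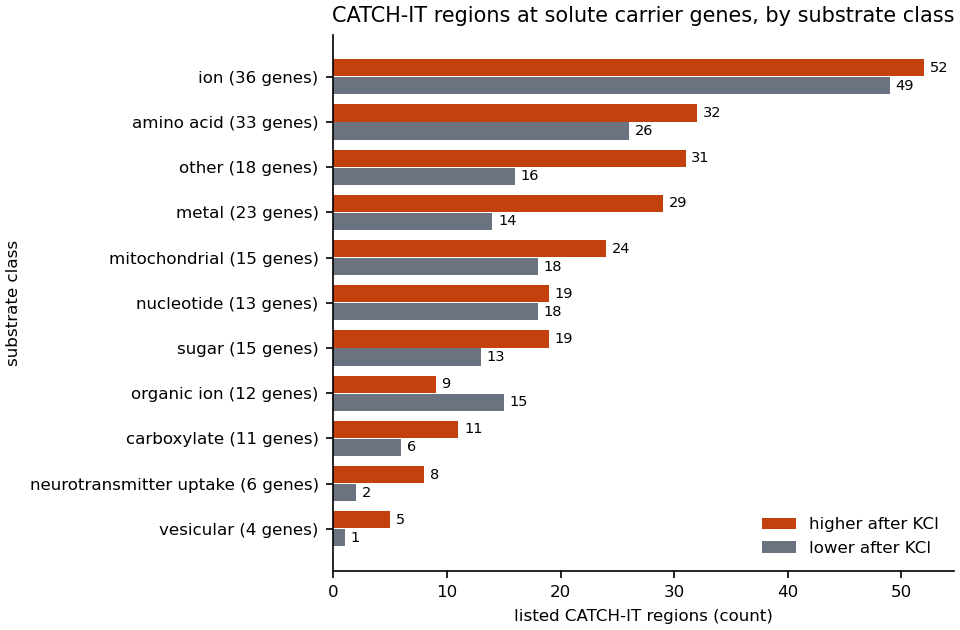
Number of listed CATCH-IT regions (x axis) higher (red) or lower (grey) after 5 hr of KCl at solute carrier genes, by substrate class (y axis, with the number of genes that have a region). Organic ion carriers have more lower than higher regions, ion and nucleotide carriers nearly equal numbers, and the other carrier classes shown more higher ones.

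Per class, the gained and the lost region with the smallest adjusted p were picked, ties going to the largest difference in group mean. Among amino acid carriers the gained pick was in Slc1a7, at chr4:107660021-107660460. It had 0 in all unstimulated libraries and 16.03, 4.79 and 13.59 after KCl. The lost pick was in Slc38a9, a lysosomal arginine sensor, with 1.89, 13.86 and 14.19 unstimulated and 0 in all KCl libraries. Among vesicular carriers Slc17a8, which loads glutamate into vesicles, held both. Its gained region had 24.05, 5.86 and 24.46 after KCl at chr10:89067981-89068380, the largest mean among these named gains, and its lost region, 18.7 kb away, 2.84, 12.47 and 14.19 unstimulated. The other vesicular genes, Slc17a9 (ATP), Slc18a1 and Slc18a2 (monoamines), had 1 gained region each. No region was listed at Slc17a6, Slc17a7 or Slc32a1, the main glutamate and GABA loaders of the cortex.

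For transmitter uptake, the serotonin carrier Slc6a4 had 2 gained regions, the dopamine carrier Slc6a3 1 and the taurine carrier Slc6a6 4, while the GABA carriers Slc6a11 and Slc6a12 had 1 lost region each and Slc6a13 1 gained. The Slc6a3 region had 16.03, 2.13 and 10.87 after KCl and the Slc6a11 region 1.89, 9.70 and 14.19 unstimulated, with 0 in the other group. Slc6a11 was thus listed as lower both here and in NeuN-positive nuclei, in regions 15040 bp apart and under different treatments.

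Among ion carriers the gained pick was in Slc24a3, a potassium-dependent sodium-calcium exchanger, with 18.70, 10.65 and 19.03 after KCl. The lost pick was in Slc26a7, an anion exchanger, with 3.47, 15.24 and 14.19 unstimulated. Among chloride cotransporters Slc12a5 (KCC2) had 1 gained and 1 lost region, and Slc12a1 4 gained and 1 lost. The sodium-calcium exchangers Slc8a1, Slc8a2 and Slc8a3 had 6 gained and 3 lost between them. At Slc8a2 a gained CATCH-IT region lay directly beside, without overlap, the region that lost H3.3 signal at 2 hr.

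Sugar and metal carriers followed the same form. Slc2a5, the fructose carrier, had 22.71, 1.60 and 13.59 after KCl, and Slc5a1, the sodium-glucose cotransporter, 2.52, 9.70 and 14.19 unstimulated in its lost region. Slc2a3, the main glucose carrier of neurons, had 1 gained region. Slc30a7, a zinc carrier of the Golgi, had 30.72, 3.20 and 19.03 after KCl in a coding exon, and Slc30a3, which fills glutamate vesicles with zinc, 1 gained region. Slc41a2, a magnesium carrier, had 1.89, 13.86 and 14.19 unstimulated in its lost region beside 4 gained ones.

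The remaining classes were read the same way. Slc25a21, a mitochondrial oxodicarboxylate carrier, had 21.37, 1.60 and 10.87 after KCl, and Slc25a20, the carnitine carrier, 2.84, 12.47 and 14.19 unstimulated. Slc35f1 had 17.37, 1.07 and 8.15 after KCl, and Slc35b1, which supplies ATP to the endoplasmic reticulum, 2.21, 6.93 and 41.39 unstimulated, where 1 library with 35 reads held most of the signal. Slc5a12, a lactate carrier, had 20.04, 2.13 and 8.15 after KCl. Slc10a7, of the bile acid carrier family, held both picks of its class, with 17.37, 3.20 and 13.59 after KCl in one region and 3.16, 12.47 and 14.19 unstimulated in another. Slc19a2, a thiamine carrier, had 25.38, 0.53 and 8.15 after KCl, and Slc46a1 2.21, 11.09 and 14.19 unstimulated upstream of its start site. In this list 1 read was worth 0.533 units in KCl library value 2 and 0.316 in unstimulated library value 1. Slc4a1ap, Slc9a3r1 and Slc9a3r2, which carry the symbol but encode binding proteins and no carrier, had 1 region each.

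Library values at the members gathered at 6 and 12 reads. The authors' label of the CATCH-IT list includes the term dup6. Whether duplicate reads at a single position underlie these peaks was not tested, so the reads of a region may not be independent. Of the 1260 library values of the group with signal, 202 were exactly 6 reads, against 64 at 5 and 59 at 7, and 35.0% were 6 or 12. In the lost regions unstimulated library value 3 was exactly 12 reads in 126 of 180 and 11 reads in 1. The same held over all listed regions, where 36.1% of values were 6 or 12 reads. A length of 380 bp, the stretch covered by every 200 bp window, moved in steps of 20 bp, that holds one given position, was that of 144 of 240 gained and 44 of 180 lost member regions. In 287 of the 420 regions (68.3%) 1 library held more reads than the other 2 together, and the part of these values in the direction of the members was not tested.

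**Figure D4:**
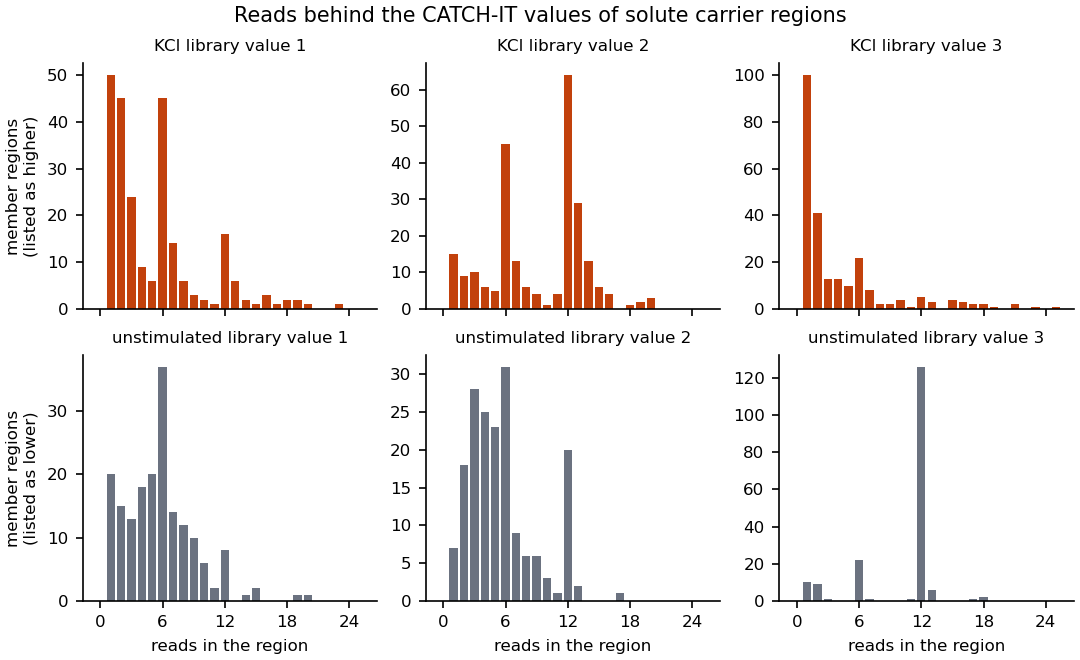
Reads per region (x axis) behind the CATCH-IT values of solute carrier regions, in KCl libraries for the 240 higher regions (top, red) and in unstimulated libraries for the 180 lower regions (bottom, grey); the y axis counts regions, and values over 25 reads (1 region) are not drawn. Peaks stand at 6 and 12 reads, the tallest at 12 reads in unstimulated library value 3, with 126 regions.

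Regions per gene went with gene length. Genes under 30 kb had a mean of 1.27 regions (66 genes), those of 30 to 100 kb 1.96 (94), those of 100 to 300 kb 3.70 (23) and those of 300 kb and over 11.2 (6). Over all genes with a region and a span the means were 1.26, 1.96, 3.83 and 11.1. Spearman's rho was 0.54 across the 189 genes and 0.66 across all 8871 genes with a region and a span. Both are descriptions over genes, which are not replicates. Slc24a3, Slc25a21, Slc39a11 and Slc9a9 had 12 regions each over 474, 485, 405 and 561 kb. Slc24a3 was lower in 8 of 12, whereas Slc39a11 was higher in 8 of 12, and Slc25a21 and Slc9a9 were higher in 7 of 12. Slc35f1 had 11 regions over 421 kb. Slc14a2, a urea carrier of the kidney, stood off this line with 11 regions, 8 of them higher, on 63.0 kb. Regions were assigned to genes by the authors and spans came from GENCODE vM1. Whether both gene models match at Slc14a2 was not tested.

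**Figure D5:**
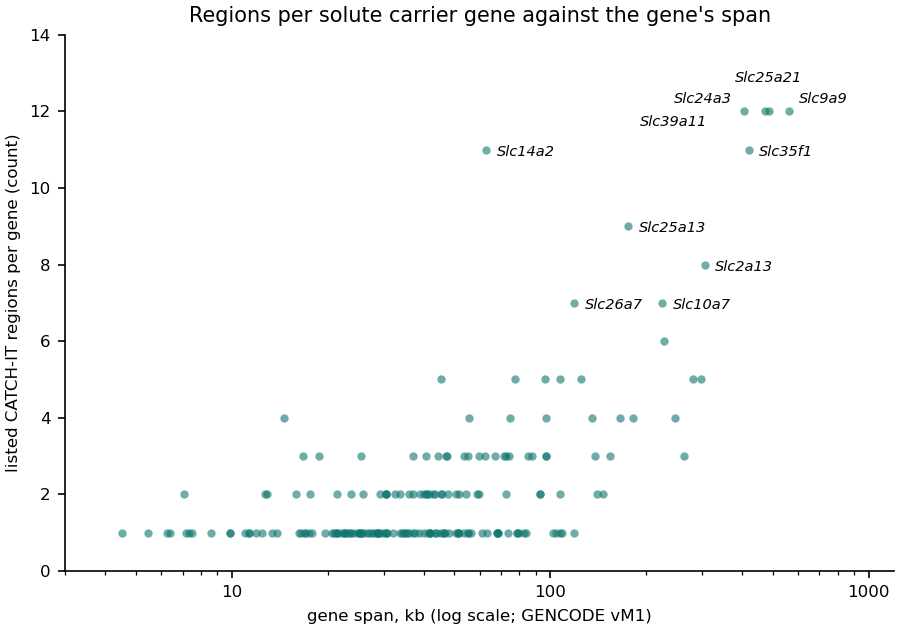
Listed CATCH-IT regions per solute carrier gene (y axis) against the gene's span in kb (x axis, log scale); each point is 1 of 189 genes, and genes with 7 or more regions are named. The 4 genes with 12 regions span 405 to 561 kb, and Slc14a2 has 11 on 63.0 kb.

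At the members the H3.3 and CATCH-IT lists shared genes but hardly any position. Of the 42 genes with an H3.3 region 32 also had a CATCH-IT region, but only 1 of the 45 H3.3 member regions overlapped one, and the median distance to the nearest was 11.1 kb. The overlap was at Slc7a9, lower in NeuN-positive nuclei and in CATCH-IT. No H3.3 member region overlapped a region of another H3.3 list. Shared genes, overlaps and distances were not counted over all listed H3.3 regions. These counts therefore have no background and do not set the members apart.

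At 5 hr both assays were run on KCl-treated neurons, and 7 of the 8 genes with an H3.3 region had CATCH-IT regions as well. Slc25a26, with more H3.3 after KCl, had 1 gained CATCH-IT region, and Slc35f3 2 gained and 1 lost. Slc36a1 and Slc46a1, also with more H3.3, had 1 lost CATCH-IT region each. Slc18a2, with less H3.3, had 1 gained region, Slc11a2 2 gained and 1 lost, and Slc1a7 3 gained and 2 lost. Slc12a3 had none. The 2 assays thus gave no common direction at these genes, and the H3.3 regions had not passed.

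Genes listed in 2 H3.3 lists were Slc35f3, Slc24a1 and Slc2a13. In CATCH-IT Slc24a1 had 1 lost region, 2707.5 bp upstream of its start site to the region's centre, with 0.32, 5.54 and 14.19 unstimulated and 0 after KCl. Slc2a13 had 8 regions, 5 gained and 3 lost, and the lost region nearest to the H3.3 region that fell at 2 hr was 1.06 kb away. The Slc35f3 gained region nearest to its 2 hr H3.3 gain, 5.52 kb away, had 1.34, 6.92 and 2.72 after KCl, which is 1, 13 and 1 reads. The lost region nearest to its 5 hr H3.3 region, 1.72 kb away, had 1.89, 8.32 and 7.10 unstimulated, which is 6 reads in each library.

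A list of 52 pumps, carrier partners and related transporters outside the Slc names was read alongside. In the H3.3 culture lists Atp2b4, a plasma membrane calcium pump, was lower at 30 min (10.7 ± 0.710 unstimulated, 2.66 ± 0.803 after KCl, SD, n = 3) and Atp2b2, another calcium pump, higher at 2 hr (3.75 ± 3.32 against 13.3 ± 2.89), and both passed. At 5 hr Atp2b2 had 3.48 ± 1.40 against 12.4 ± 2.09 and did not pass. After enrichment Slco5a1 and Sfxn1 rose in NeuN-positive nuclei. Stk39, the kinase that acts on cation-chloride cotransporters, the calcium pump Atp2a2 and Slco3a1 rose in NeuN-negative nuclei, and the vesicle protein Sv2c fell from 6.03 ± 0.323 to 0.180 ± 0.312. In CATCH-IT 31 of the 52 had 99 regions, 62 higher and 37 lower.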

How the data were processed

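Values came from 7 deposited lists of regions called as different between a treated and a control group, over 66 samples in the series, of which 41 belonged to the 14 groups compared. The submitters' processing notes name the aligner Bowtie (0.12.7), bedtools (2.16.2) and build mm9. How regions were called is not stated there. Windows of 200 bp in steps of 20 bp underlie the regions, per the file headers. The signal of each group is the mean of the authors' normalised values per library, packed without library names, and equalled their mean within 0.02 in 100% of regions. The authors also deposited the ratio of that signal to input (infinite where input was 0), a log2 fold change (infinite where a mean was 0) and a p-value with its adjusted p-value. No column of per-sample values was left out (0).

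Regions had been chosen by the authors on these libraries, so no new test per region was run, and a call is the authors' adjusted p of 0.05 or less over their own list. Reads were found by dividing each value by the step of which a library's low values were whole multiples (within 0.1 of a step, 100% of them). Gene symbols came from the files or, for 910 of 911 regions with a gene in the NeuN-positive list, from Ensembl identifiers through GENCODE vM1, which also gave exons and spans. The genome, of the files' build, gave GC content and sequences. Differences in signal were taken as log2 of signal plus 1, understating changes of low regions. Python 3.11.15 with pandas 2.3.3, numpy 2.4.6, scipy 1.17.1, pysam 0.24.0 and matplotlib 3.10.9 was used.

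Members, substrate classes and lists were chosen with earlier results of these data known. Values were named by a rule: every H3.3 member region, and in CATCH-IT the higher and lower region with the smallest adjusted p per class, the genes with the most regions and those in 2 H3.3 lists. Ties went to the largest difference in group mean. Some gained picks were such ties: regions of Slc2a5 and Slc2a13 shared an adjusted p of 4.15e-07 in the authors' deposited table. Values of some genes that the rule or the lists name are not reported here. Alternatives tried were a stricter adjusted p, promoter or gene body regions only, the ratio to input, other pseudocounts and leaving out each library value. HA and embryonic NeuN-positive libraries were not analysed here.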

Additional observations from a re-analysis of the deposited data

How the results depend on the processing

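No paired analysis was possible because the packed values carry no library names or replicate numbers. Counts of called member regions changed with the setting as follows. At an adjusted p of 0.01 the H3.3 counts at 30 min, at 2 hr and in NeuN-positive nuclei became 0, from 5, 7 and 12, while those in NeuN-negative nuclei and CATCH-IT stayed at 13 and 420. Promoter regions alone numbered 2 at 30 min, 1 at 2 hr, 3 in NeuN-positive nuclei, 4 in NeuN-negative nuclei and 43 in CATCH-IT, and gene body regions 3 at 30 min. With a finite ratio to input moving the same way, 36 CATCH-IT regions were left. Leaving out 1 library value at a time left 3 to 5 regions 3-fold apart at 30 min (3 without KCl value 3, which takes out Slc35f1 and Slc4a7, and 4 without KCl value 1 or unstimulated value 3, which takes out Slc5a5), 7 at 2 hr, 419 to 420 in CATCH-IT, 8 to 12 in NeuN-positive nuclei and 12 to 13 in NeuN-negative nuclei. At 5 hr the count was 0 throughout, and a share higher among called regions could not be given. The median log2 difference of CATCH-IT members was 2.22 with a pseudocount of 1, 3.06 with 0.5 and 1.5 with 2, and that of NeuN-negative members 1.89 with 1 and 1.52 with 2. The other 73 of 87 alternatives left the count within 1.5 times, or the share or median within its interval or replicate spread. Some of these could not have moved, so their number does not measure stability. The counts at 5 hr started from 0 called regions. A demand that every library of the higher group be above 0 was met by all member regions. The share among called regions was the main share wherever all members had passed. Of the 69 named regions, Slc8a2 at 2 hr alone changed direction, to 0.04 with the ratio to input, among 44 with a finite ratio, of which 28 others moved by more than the replicate spread and 15 did not. Library totals were not used here, and reads per region limit what can be told apart.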
